A study of Homo sapiens with 16 samples.

Results

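A set of 10 tetraspanin genes was followed in K562 cells: CD9, CD63, CD81, CD82, CD151, CD53, CD37, TSPAN3, TSPAN4 and TSPAN14. They were taken as a list of names out of 35052 genes, and the list was chosen with earlier results of these data known. All 10 passed the filter on low counts. K562 is an established human leukaemia cell line, labelled wild type. The cells received 25 nM PMA, a phorbol ester that activates protein kinase C and drives this line towards a megakaryocyte-like state. RNA was sequenced at 0 h, within the first hours (0.5, 1.5, 3 and 6 h) and on later days (24, 48 and 72 h), with 2 libraries at each of the 8 time points and 16 in all. The 0 h libraries carry the same treatment label and are the untreated reference. The medium was changed after 24 and 48 h. No label says whether the 2 libraries of a time point came from separate cultures, so p-values measure the spread between these libraries, which may be technical.

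Tetraspanins are small membrane proteins that cross the membrane 4 times and pack side by side with integrins, immunoglobulin-like proteins and metalloproteases into membrane domains. Some sit mainly at the cell surface, and others in late endosomes, lysosomes and secretory granules. CD9 and CD63 are both abundant in platelets, CD9 at the surface and CD63 in the membranes of lysosomes and dense granules, and both are widely used as markers of extracellular vesicles. CD37 and CD53 belong to white blood cells, and TSPAN14 belongs to the TspanC8 group, which carries the metalloprotease ADAM10 to the surface.

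Library totals were 27285773 to 54056289 estimated reads. Levels are given as CPM, the reads of a gene relative to a library total scaled by TMM factors, except between genes, where TPM is used because it takes account of transcript length. The gap between transcript length and effective length, which stands for the fragment length, was 210 to 221 nt in replicate 1. In replicate 2 it was 229 to 248 nt, apart from 0 h replicate 2 at 199 nt. Markers of K562 and erythroid cells were present at 0 h (8 of 8 tested), with summed levels of 1627 to 1850 CPM at 0 h, 894 to 978 CPM at 24 h and 1146 to 1579 CPM at 72 h. All 8 were called lower at 24 h and 4 of 8 at 72 h, beside 26.6% and 26.9% of all genes called lower. The median log2 fold change of the list at 72 h was -1.10. These markers fell over the hours in which most tetraspanins rose, and their part in that was not tested. The 12 megakaryocyte markers summed to 149 to 204 CPM at 0 h and to 5475 to 6220 CPM at 72 h. Of these 8 were tested, with 5 called higher at 72 h and 1 lower, beside 31.7% and 26.9% of all genes. Among the markers under the filter were GP1BA, GP9 and PF4, which define platelets and their precursors. In RNA from whole cultures, more cells of a kind and more RNA per cell cannot be told apart.

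The level of a gene per transcript length separated CD63 from the other 9 members at every time point. At 0 h the summed TPM was 363 and 412 for CD63 and 143 and 138 for CD53. At the other end, CD9 stood at 0.512 and 0.661 TPM, the lowest of the 10. From CD63 the order at 0 h ran through CD53, CD81, CD151, TSPAN3, TSPAN14, CD37, CD82 and TSPAN4 to CD9, and the only neighbours whose libraries overlapped were CD37 and CD82. By 72 h CD9 had passed CD82, TSPAN4, TSPAN14 and CD37 to rank 6, at 63.9 and 65.6 TPM. At 72 h its range overlapped that of CD82, and 2 other pairs of neighbours also overlapped, CD151 with TSPAN3 and TSPAN4 with TSPAN14. The 10 members together summed to 830 and 923 TPM at 0 h and to 2446 and 2671 TPM at 72 h. CD63 made up 43.7 to 44.6% of that sum at 0 h and 67.9 to 73.3% at 72 h, while the share of CD9 was 0.0618 to 0.0716% at 0 h and 2.39 to 2.68% at 72 h. These levels are descriptions with no test.

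**Figure D1:**
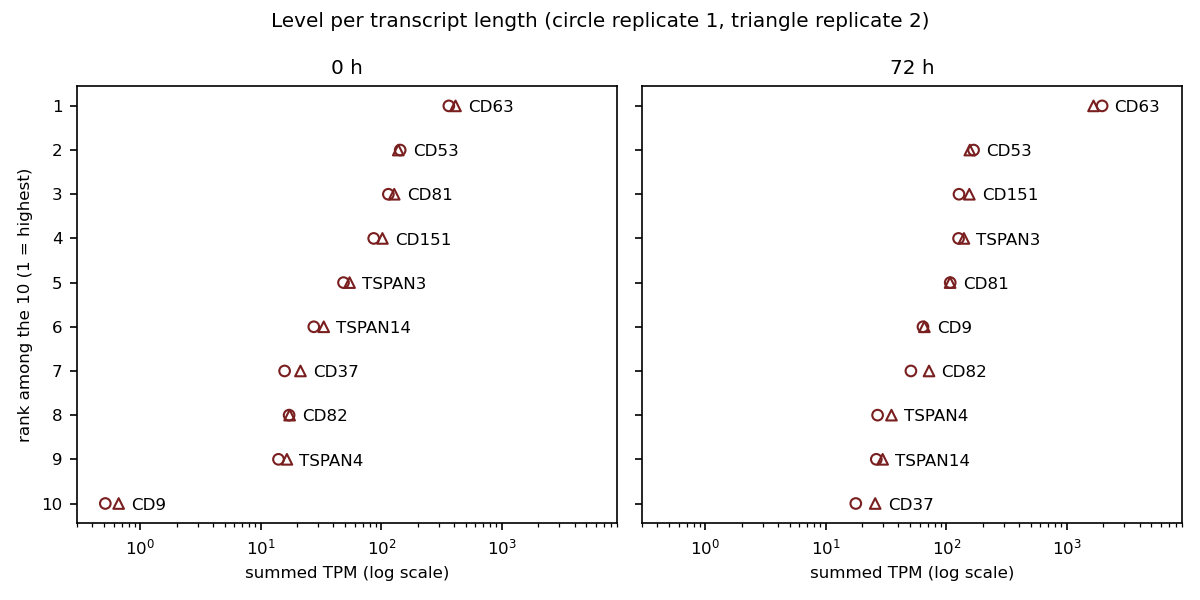
Summed TPM of each tetraspanin (x axis, log scale) against its rank among the 10 (y axis) at 0 h and 72 h, with a circle for replicate 1 and a triangle for replicate 2. CD63 holds the first rank in both panels, and CD9 moves from rank 10 at 0 h to rank 6 at 72 h.

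Most of the members rose on the later days. At 72 h 6 were called higher than 0 h, at an edgeR quasi-likelihood adjusted p under 0.05: CD9, CD63, CD82, TSPAN3, TSPAN4 and CD151. CD81 was called lower, and CD53, CD37 and TSPAN14 were not called. So 7 of 10 members were called at 72 h, against 58.6% of all 17559 tested genes. By direction, 31.7% of all genes were called higher and 26.9% lower, beside 6 and 1 of the members. The median log2 fold change of the 10 was 0.78 at 72 h, beside -0.03 over all genes tested.

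The calls built up to 24 h, among the members as among all genes. No member was called at 0.5 h, where 0.171% of all genes were, although 4 had an unadjusted p under 0.05 and DESeq2 called 1. At 1.5 h 2 members were called, both lower, beside 17.1% of all genes (9.05% higher and 8.05% lower). At 3 h 4 were called (3 higher and 1 lower) beside 42.0% (21.5% higher and 20.5% lower). At 6 h 6 were (4 higher and 2 lower) beside 57.2% (27.8% and 29.4%). At 24 h 8 were called (7 higher and 1 lower) beside 58.3% (31.7% and 26.6%), and at 48 h 6, all higher, beside 54.3% (30.2% and 24.1%). Scaled to total counts, 3 were higher and 4 lower at 3 h, 4 higher and 3 lower at 6 h, then 6 higher and 2 lower at each of 24, 48 and 72 h. Shares of all genes called under total-count scaling are not given, so these member counts have no background to be set beside. That scaling moved the median of all genes to -0.28 at 3 h, -0.35 at 6 h and -0.26 at 24 h.

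Between neighbouring time points, no member was called at 1.5 h against 0.5 h (5.77% of all genes), with none at an unadjusted p under 0.05. Of the 10, 5 were called at 3 h against 1.5 h (25.1%), 6 at 6 h against 3 h (41.2%) and 9 at 24 h against 6 h (56.6%). The later steps held fewer, 2 at 48 h against 24 h (15.0%) and 1 at 72 h against 48 h (1.47%). Across all time points together, 9 of 10 members changed, beside 82.9% of all genes, and the exception was CD37 with an adjusted p of 0.0755. At 72 h against 3 h 9 members were called (58.2% of all genes), and at 72 h against 6 h 8 were (57.2%).

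**Figure D2:**
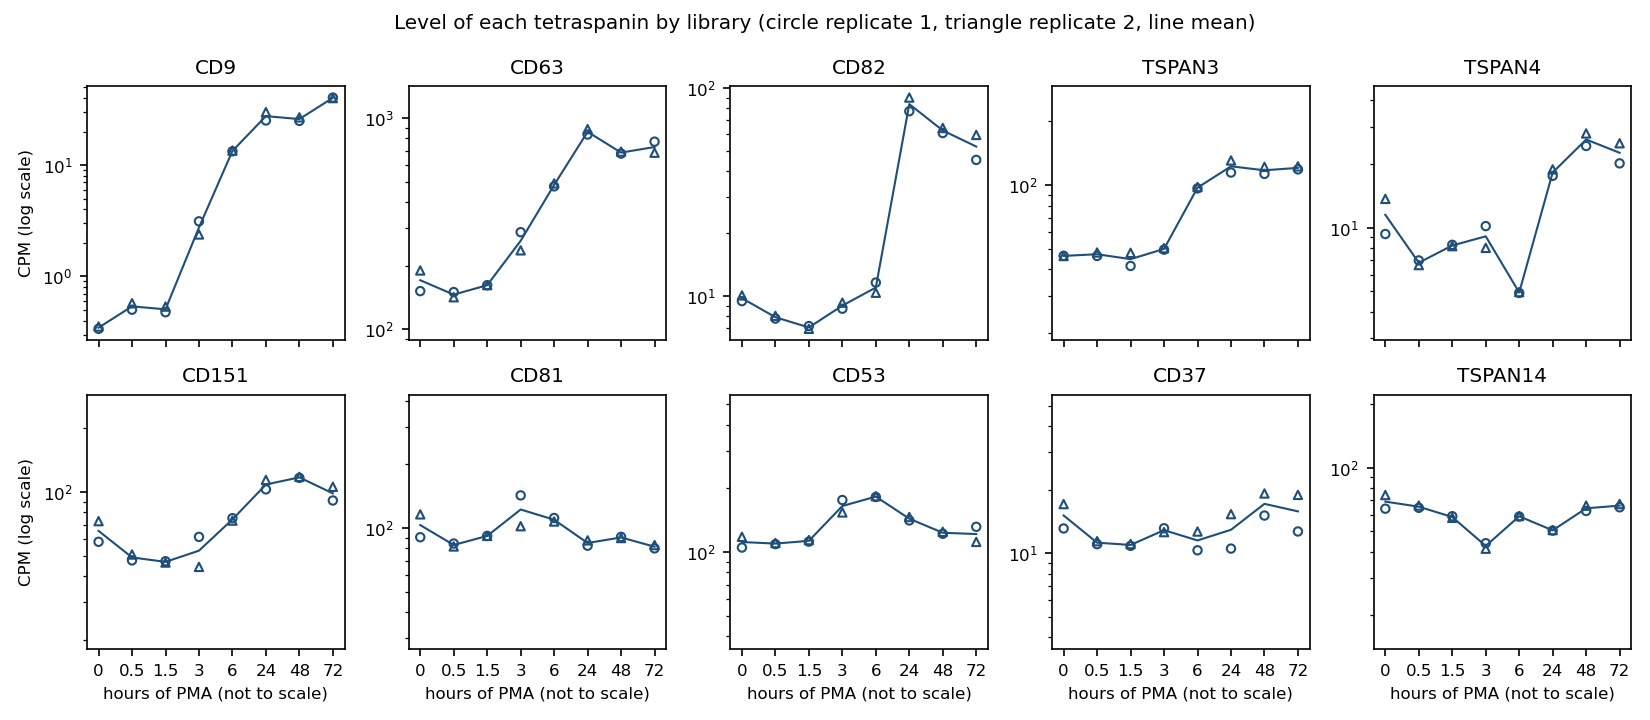
CPM of each tetraspanin (y axis, log scale) at each time of PMA (x axis, not to scale), with a circle for replicate 1, a triangle for replicate 2 and a line through the means; the 10 panels have their own axis ranges. CD9 climbs from 0.346 to 40.3 CPM on average, CD82 steps up between 6 and 24 h, and the libraries of CD81 lie between 80.1 and 143 CPM.

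CD9 is a surface tetraspanin that binds the immunoglobulin-like proteins IGSF8 and PTGFRN and is plentiful on platelets. Its gene lies at chr12:6199715-6238271 on the plus strand of GRCh38. At 0 h it had 11 reads in each library, or 0.338 and 0.354 CPM. It stood at 0.502 and 0.573 CPM at 0.5 h, 0.476 and 0.535 at 1.5 h, 3.13 and 2.38 at 3 h, then 13.3 and 13.5 at 6 h. On the later days it reached 25.2 and 30.0 CPM at 24 h, 25.0 and 26.9 at 48 h, then 40.5 and 40.1 at 72 h. Both libraries of every time point from 3 h lay above all those of 0, 0.5 and 1.5 h, and only 24 and 48 h overlapped among the later ones. The log2 fold change against 0 h was 0.63 (SE 0.27) at 0.5 h, which did not pass the test (adjusted p = 0.295), and 2.99 (SE 0.21) at 3 h, which did (adjusted p = 1.02e-07). It was 6.85 (SE 0.19) at 72 h, a fold of 115, with an adjusted p of 2.68e-12. The counting error of 11 reads in each 0 h library is larger than these SE values, which therefore make the folds look too precise. CD9 was also the member called between 48 and 72 h, with a log2 fold change of 0.63 (SE 0.12, adjusted p = 0.0269). That last call was lost without 48 h replicate 1 or 2, at an adjusted p of 0.325 or 0.209, and without 72 h replicate 1 or 2, at 0.118 or 0.0701.

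CD63 is the tetraspanin of late endosomes, lysosomes and platelet dense granules, and is sorted onto the small vesicles that these compartments release. CD63 lies at chr12:55725323-55729707 on the minus strand. CD63 had 152 and 190 CPM at 0 h, 150 and 142 at 0.5 h, then 162 and 162 at 1.5 h. Later it had 288 and 236 CPM at 3 h, 475 and 490 at 6 h, 835 and 886 at 24 h, 678 and 693 at 48 h, then 773 and 685 at 72 h. The libraries from 3 h on all exceeded those of the first 3 time points, and 24 h was the highest. The log2 fold change against 0 h was 0.62 (SE 0.12, adjusted p = 0.000856) at 3 h, 1.50 (SE 0.12, adjusted p = 1.36e-07) at 6 h and 2.33 (SE 0.12, adjusted p = 2.19e-09) at 24 h. At 72 h it was 2.09 (SE 0.12), a fold of 4.27, with an adjusted p of 5.37e-09. The drop from 24 to 48 h, -0.33 (SE 0.12), did not pass the test (adjusted p = 0.0834).

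CD82 is a surface and endosomal tetraspanin best known for restraining cell migration and metastasis. CD82 lies at chr11:44564427-44620363 on the plus strand. For CD82 the libraries gave 9.45 and 10.1 CPM at 0 h, 7.79 and 8.03 at 0.5 h, 7.17 and 6.96 at 1.5 h, 8.69 and 9.30 at 3 h, then 11.6 and 10.4 at 6 h. They gave 77.4 and 90.1 CPM at 24 h, 60.8 and 64.3 at 48 h, then 45.2 and 59.5 at 72 h. CD82 was thus close to its starting level at 6 h, when CD9 and CD63 had already risen, and the step came between 6 and 24 h. That step had a log2 fold change of 2.93 (SE 0.14, adjusted p = 1.73e-09). Against 0 h the value was 3.10 (SE 0.14, adjusted p = 3.01e-10) at 24 h and 2.42 (SE 0.13, adjusted p = 2.74e-09), or 5.36-fold, at 72 h. The fall from 24 to 48 h, -0.42 (SE 0.12), was called with an adjusted p of 0.0332, a call lost in 12 of 30 alternatives. Without 24 h replicate 2 it was -0.27 (adjusted p = 0.351), and without 48 h replicate 1 or 2 it was -0.38 or -0.47 (adjusted p = 0.205 or 0.114). Without either library of 0.5 h or 6 h, the adjusted p was at most 0.0504 and no longer under the threshold. At 1.5 h CD82 was called lower than 0 h, at -0.47 (SE 0.14, adjusted p = 0.0342), a call lost in 13 of 30 alternatives. It was -0.42 without 0 h replicate 2 (adjusted p = 0.192), and -0.49 or -0.44 without 1.5 h replicate 1 or 2 (adjusted p = 0.121 or 0.175). Leaving out either library of 0.5 h or 6 h also ended the call, at an adjusted p of 0.0511 to 0.0542.

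The CD82 reads were also assigned to different transcript models before and after the step, as shown in the plot of reads assigned to CD82 and TSPAN14 models. The main model, CD82-201, has 10 exons in GENCODE 29. The model CD82-204 has 2 exons, its 5′ end is marked as not found, and it joins the exon before exon 9 of CD82-201 to the exon after it. Exon 9 lies at chr11:44618640-44618723 on the plus strand, is coding, and has 84 nt, the length of 28 codons. It is shown because it is what the junction of CD82-204 leaves out, and the junctions are shown with the 15 nt before the joint in lower case and the 15 nt after it in capitals:
Exon 9 of CD82-201: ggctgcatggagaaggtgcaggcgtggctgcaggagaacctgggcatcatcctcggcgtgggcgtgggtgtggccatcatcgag
CD82-201 junction into exon 9: cctgtgtaccaggagGGCTGCATGGAGAAG
CD82-204 junction: cctgtgtaccaggagCTCCTGGGGATGGTC

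CD82-204 took 47.1 and 53.2% of the CD82 reads in the 0 h libraries and 30.8 to 39.5% at 6 h, then 10.5 to 11.2% at 24 h and 9.46 to 12.9% at 72 h. CD82-201 took 43.0 to 48.1% at 0 h and 76.9 to 80.8% at 72 h. In CPM, CD82-201 was at 4.44 ± 0.152 (SD, n = 2) at 0 h, 6.25 ± 0.131 at 6 h and 66.0 ± 8.15 at 24 h. CD82-204 was at 4.91 ± 0.645 at 0 h, 3.89 ± 0.983 at 6 h and 9.11 ± 1.37 at 24 h. For CD82-201 the 24 h mean was 14.9 times the 0 h mean, and for CD82-204 it was 1.86 times. These are values assigned by the quantification program, whose error is not given in the sources used here, and the deposited length of CD82-201 differs from that in GENCODE 29, so no test was made. A read that lies within an exon stretch shared by both models does not tell them apart.

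**Figure D3:**
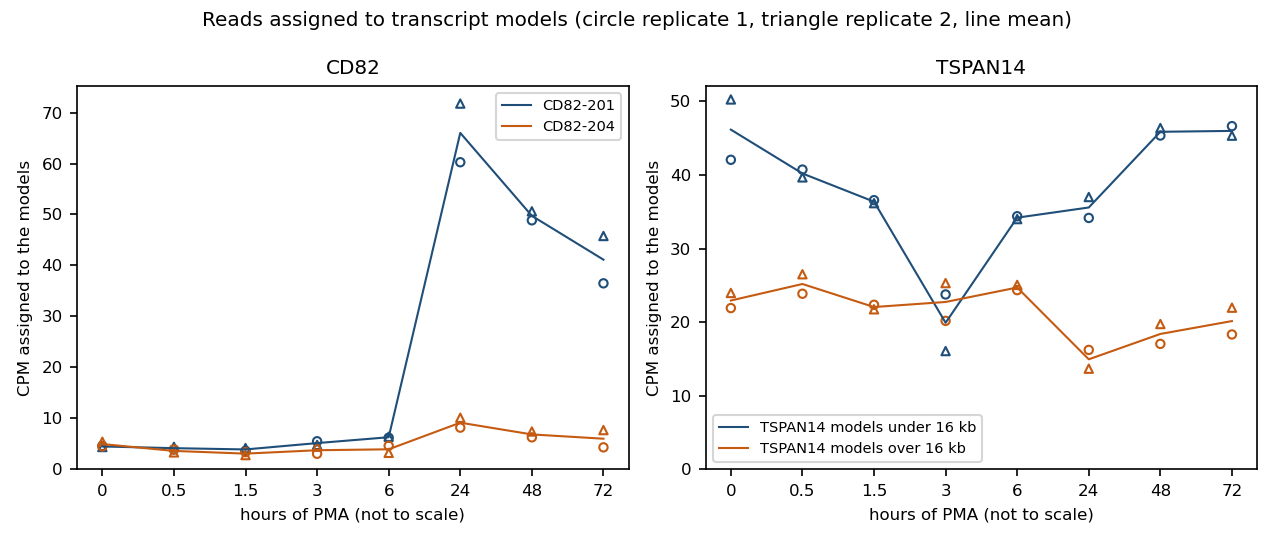
CPM assigned to transcript models of CD82 (left) and TSPAN14 (right) at each time of PMA (x axis, not to scale), with a circle for replicate 1, a triangle for replicate 2 and a line through the means. CD82-201 rises from 6.25 to 66.0 CPM between 6 and 24 h while CD82-204 goes from 3.89 to 9.11, and at 3 h the TSPAN14 models under 16 kb reach their lowest level, 19.9 CPM.

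TSPAN3, a broadly expressed tetraspanin of endosomes and the surface, rose in 1 main step. On GRCh38 it lies at chr15:77041404-77083984 on the minus strand. TSPAN3 had 46.2 and 46.1 CPM at 0 h, 46.2 and 47.9 at 0.5 h, 41.4 and 47.8 at 1.5 h, then 49.4 and 50.3 at 3 h. From 6 h it had 96.4 and 97.8 CPM, 115 and 131 at 24 h, 113 and 122 at 48 h, then 119 and 123 at 72 h. The first 4 time points lay together, and every library from 6 h on was above all of them. The step from 3 to 6 h had a log2 fold change of 0.96 (SE 0.09, adjusted p = 2.03e-06). A smaller rise from 6 to 24 h, 0.34 (SE 0.09, adjusted p = 0.00641), was also called in the fit reported here. At 72 h the value against 0 h was 1.38 (SE 0.09, adjusted p = 1.99e-08), a fold of 2.61.

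TSPAN4 and CD151 are neighbours on chromosome 11. TSPAN4, known for its part in migrasomes, the vesicles left on the retraction fibres of moving cells, lies at chr11:842808-867116. CD151, which holds laminin-binding integrins in tetraspanin domains, lies at chr11:832843-839831, and both are on the plus strand. CD151 overlaps POLR2L on the other strand. Whether reads were counted by strand is not given in the sources used here, so reads of an overlapping pair may not be told apart.

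TSPAN4 had 9.33 and 13.7 CPM at 0 h, 6.998 and 6.65 at 0.5 h, 8.29 and 8.17 at 1.5 h, then 10.2 and 8.02 at 3 h. It had 4.91 and 4.96 CPM at 6 h, its lowest level, then 17.6 and 18.9 at 24 h, 24.4 and 27.9 at 48 h, then 20.1 and 25.1 at 72 h. TSPAN4 went down before it went up. At 6 h it was called lower than 0 h, at -1.22 (SE 0.19, adjusted p = 7.08e-05). From 6 to 24 h it rose by 1.89 on the log2 scale (SE 0.19, adjusted p = 1.77e-06), and at 72 h it stood 0.98 (SE 0.17, adjusted p = 0.00028) above 0 h. The 24 h call against 0 h, 0.67 (SE 0.17, adjusted p = 0.00497), was lost in the fit without 0 h replicate 1, at 0.42 (adjusted p = 0.0571).

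CD151 had 58.1 and 72.7 CPM at 0 h, 47.4 and 50.5 at 0.5 h, 47.0 and 46.3 at 1.5 h, then 61.2 and 44.2 at 3 h. It had 75.1 and 73.1 CPM at 6 h, 103 and 114 at 24 h, 117 and 118 at 48 h, then 91.1 and 106 at 72 h. The libraries from 6 h on lay above all earlier ones, at 6 h by as little as 73.1 against 72.7 CPM. The 6 h value against 0 h was 0.18 on the log2 scale (SE 0.14, adjusted p = 0.3) and was not called. The 24 h value, 0.73 (SE 0.14, adjusted p = 0.000555), was called. The log2 fold change against 0 h was 0.84 (SE 0.14, adjusted p = 0.000178) at 48 h and 0.59 (SE 0.14, adjusted p = 0.00256), or 1.50-fold, at 72 h. At 1.5 h it was called lower, at -0.49 (SE 0.14, adjusted p = 0.0324), a call lost in 10 of 30 alternatives. For CD151 it was -0.32 without 0 h replicate 2 (adjusted p = 0.3), and -0.50 or -0.47 without 1.5 h replicate 1 or 2 (adjusted p = 0.128 or 0.165). Without 6 h replicate 1 or 2 the adjusted p was 0.0532 or 0.0533.

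In the first hours the changes of all genes ran with base composition. Across 9983 genes, which are not independent replicates, the log2 fold change correlated with the GC content of the transcripts at r = -0.757 at 0.5 h and -0.421 at 1.5 h, and at -0.163 to -0.024 at later times. The transcripts of CD151 have 62.2% GC and those of CD82 59.3%, the members called lower at 1.5 h. TSPAN4, with 64.4% GC, was at -0.48 at 1.5 h (adjusted p = 0.0796) and CD81, with 61.9%, at -0.17 (adjusted p = 0.424), and neither was called. With the GC trend of each library removed, the value at 1.5 h was -0.18 for CD151 (adjusted p = 0.143) and -0.24 for CD82 (adjusted p = 0.169), and none of the 10 members was called. The falls were also not called without single libraries, as given for each, or in a fit of the 0 h and 1.5 h libraries alone. What part base composition has in them was not tested.

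**Figure D4:**
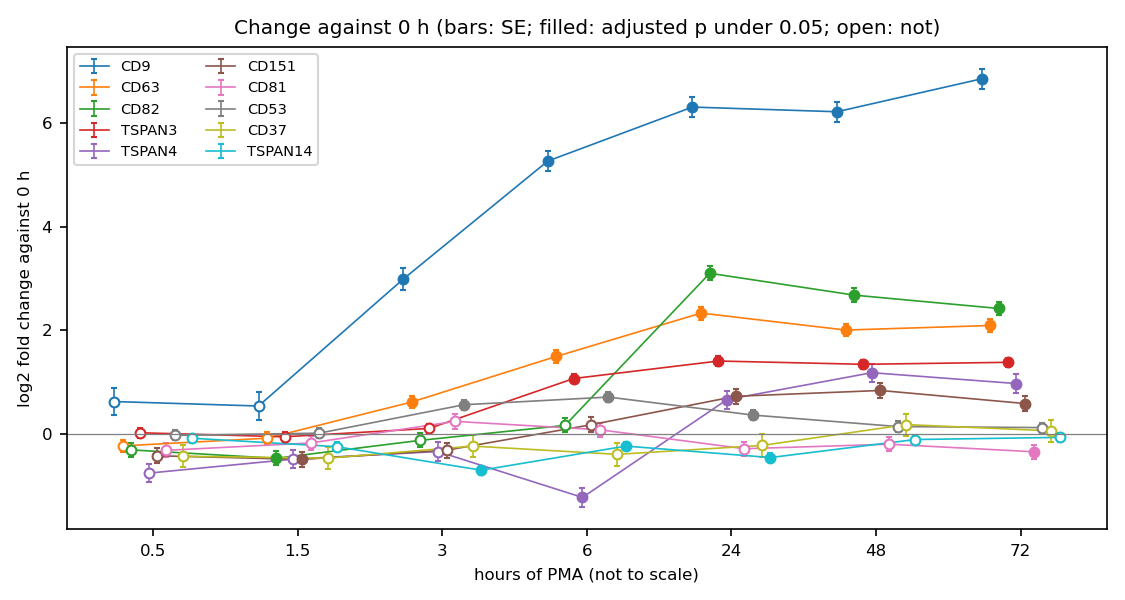
Log2 fold change of each tetraspanin against 0 h (y axis) by time of PMA (x axis, not to scale), with bars of 1 SE, filled points for an adjusted p under 0.05 and open points otherwise. CD9 reaches 6.85 at 72 h, CD82 peaks at 3.10 at 24 h, and TSPAN4 is at -1.22 at 6 h before it rises. The bars of CD9 are smaller than the counting error of its 11 reads in each 0 h library.

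CD53, a tetraspanin of white blood cells, was high from the start and rose for a time. Its gene lies at chr1:110871188-110899928 on the plus strand. CD53 had 105 and 118 CPM at 0 h, 109 and 110 at 0.5 h, 112 and 114 at 1.5 h, 176 and 154 at 3 h, then 182 and 184 at 6 h. Later it had 141 and 146 CPM at 24 h, 122 and 125 at 48 h, then 132 and 112 at 72 h. The log2 fold change against 0 h was 0.57 (SE 0.10, adjusted p = 0.000364) at 3 h and 0.71 (SE 0.10, adjusted p = 2.46e-05) at 6 h. At 24 h it was 0.37 (SE 0.10, adjusted p = 0.00553), a call lost under total-count scaling (0.12, adjusted p = 0.164) and without 24 h replicate 2 (0.31, adjusted p = 0.0651). At 72 h it was 0.13 (SE 0.10, adjusted p = 0.285). Between 6 and 72 h CD53 fell by 0.59 (SE 0.10, adjusted p = 0.000165), over the same hours in which CD9 rose by 1.59 (SE 0.13, adjusted p = 2.23e-07).

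CD37, the other white-cell tetraspanin, was called in none of the 15 contrasts of this edgeR fit, and had an unadjusted p under 0.05 in 0 of them. It was called at 72 h against 6 h in 5 alternatives, among them total-count scaling. The gene occupies chr19:49335171-49343335 on the plus strand and overlaps TEAD2 on the other strand. CD37 ranged over the 16 libraries from 10.3 CPM in 6 h replicate 1 to 19.2 CPM in 48 h replicate 2, with 13.1 and 17.1 CPM at 0 h and 12.7 and 18.9 CPM at 72 h. The value at 72 h against 0 h was 0.06 (SE 0.21, adjusted p = 0.814). Models with a retained intron took 23.6 to 49.6% of the CD37 reads.

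CD81, a widely expressed surface tetraspanin, moved between 80.1 and 143 CPM, with its highest value in 3 h replicate 1. Its gene lies at chr11:2376177-2397419 on the plus strand. CD81 had 90.4 and 116 CPM at 0 h, 84.5 and 81.8 at 0.5 h, 91.7 and 91.8 at 1.5 h, 143 and 102 at 3 h, then 112 and 107 at 6 h. It had 82.5 and 87.4 CPM at 24 h, 90.8 and 89.7 at 48 h, then 80.1 and 83.0 at 72 h. The value at 72 h against 0 h was -0.34 (SE 0.14, adjusted p = 0.0478), and it was called in the fit reported here but not in 23 of the 30 alternatives. The fall from 3 to 72 h was -0.59 (SE 0.14, adjusted p = 0.00235), and it rested in size on the 3 h libraries. Without 3 h replicate 1 it was -0.32 (adjusted p = 0.0438), and without 3 h replicate 2 -0.81 (adjusted p = 0.000123). CD81 was also called at 3 h against 1.5 h, at 0.42 (SE 0.14, adjusted p = 0.0403). Without 3 h replicate 1 that value was 0.15 (adjusted p = 0.449), and it was not called without any 1 of the libraries of 0.5, 1.5, 6, 24 or 48 h either (adjusted p from 0.0549 to 0.158). At 24 h against 6 h CD81 was called at -0.37 (SE 0.14, adjusted p = 0.0367), and not without any 1 of the libraries of 0.5, 1.5, 6, 24 or 48 h (adjusted p from 0.0526 to 0.155). At 72 h against 6 h it was called at -0.42 (SE 0.14, adjusted p = 0.018), and not without 6 h replicate 1 or 72 h replicate 1 (adjusted p = 0.0792 in each). Over all time points together CD81 changed (adjusted p = 0.00953).

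TSPAN14, a TspanC8 tetraspanin, dipped and came back. TSPAN14 occupies chr10:80454166-80533123 on the plus strand. TSPAN14 had 64.0 and 74.2 CPM at 0 h, 64.6 and 66.2 at 0.5 h, 58.9 and 57.9 at 1.5 h, then 43.9 and 41.4 at 3 h. It had 58.7 and 59.0 CPM at 6 h, 50.4 and 50.7 at 24 h, 62.4 and 66.1 at 48 h, then 65.0 and 67.3 at 72 h. It was lowest at 3 h, at -0.70 (SE 0.09, adjusted p = 1.86e-05) against 0 h, and lower again at 24 h, at -0.45 (SE 0.08, adjusted p = 0.000441). At 6 h it was called at -0.23 (SE 0.08, adjusted p = 0.032), a call lost in 8 of 30 alternatives. For TSPAN14 at 6 h it was -0.12 without 0 h replicate 2 (adjusted p = 0.259), -0.21 or -0.22 without 6 h replicate 1 or 2 (adjusted p = 0.142 or 0.131), and -0.22 without 24 h replicate 2 (adjusted p = 0.0554). At 72 h the value was -0.06 (SE 0.08, adjusted p = 0.542).

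The dip of TSPAN14 was larger per transcript length than in reads. The summed TPM was 27.5 and 33.2 at 0 h and 11.3 and 8.48 at 3 h. The models under 16 kb took 46.2 ± 5.80 CPM at 0 h (SD, n = 2), 19.9 ± 5.44 at 3 h, and again 46.0 ± 0.916 at 72 h. The 2 models over 16 kb stood at 22.9 ± 1.45 CPM at 0 h and 22.7 ± 3.63 at 3 h, and their share of the reads was 32.3 to 34.2% and 45.9 to 61.2%. The deposited length of 1 of these long models differs from GENCODE 29, and the shares were not tested.

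Start regions are shown to set members that rose beside members that were not called at 72 h. RefSeq windows (GRCh38.p14) were matched by symbol for 6 of the 10 members, CD9, CD63, CD82, CD53, TSPAN4 and TSPAN14. For each, the window nearest the start of the coding model with the most reads was taken, and the longest stretch before the start that lies outside annotated exons is printed, 5′ to 3′ on the gene's strand. Capitals mark a match to any motif searched on both strands. The AP-1 motif was searched as TGANTCA. The EGR motif was searched as GCGNGGGCG. The GC box was searched as GGGCGG. The GATA motif was searched as GATAA, the ETS motif as CGGAAG and the TATA box as TATAAA. EGR and GC box matches can overlap. The stretches are chr12:6200150-6200315 (plus strand) for CD9, chr11:44565413-44565590 (plus) for CD82, chr12:55727901-55728150 (minus) for CD63, chr11:842691-842807 (plus) for TSPAN4, chr1:110872898-110873147 (plus) for CD53 and chr10:80454060-80454165 (plus) for TSPAN14:
CD9: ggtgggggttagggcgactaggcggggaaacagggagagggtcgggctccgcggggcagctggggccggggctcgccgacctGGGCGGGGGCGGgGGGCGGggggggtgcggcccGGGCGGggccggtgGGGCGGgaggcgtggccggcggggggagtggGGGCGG
CD82: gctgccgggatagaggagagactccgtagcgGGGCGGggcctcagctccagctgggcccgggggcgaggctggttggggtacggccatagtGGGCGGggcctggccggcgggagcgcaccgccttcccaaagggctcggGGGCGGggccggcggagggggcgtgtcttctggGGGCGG
CD63: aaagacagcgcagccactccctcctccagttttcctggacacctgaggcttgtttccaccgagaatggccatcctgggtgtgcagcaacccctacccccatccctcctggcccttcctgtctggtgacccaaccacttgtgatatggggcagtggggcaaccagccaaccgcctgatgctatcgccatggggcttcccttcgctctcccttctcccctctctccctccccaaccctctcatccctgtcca
TSPAN4: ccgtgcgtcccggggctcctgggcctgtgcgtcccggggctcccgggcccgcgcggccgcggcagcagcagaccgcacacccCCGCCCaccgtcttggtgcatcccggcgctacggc
CD53: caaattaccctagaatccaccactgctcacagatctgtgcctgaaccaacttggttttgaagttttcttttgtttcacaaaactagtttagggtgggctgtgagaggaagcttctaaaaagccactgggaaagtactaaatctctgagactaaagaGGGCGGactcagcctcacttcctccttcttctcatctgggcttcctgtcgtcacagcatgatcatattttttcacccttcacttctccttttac
TSPAN14: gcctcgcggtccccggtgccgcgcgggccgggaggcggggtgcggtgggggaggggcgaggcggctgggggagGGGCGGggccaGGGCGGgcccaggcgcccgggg

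Over the whole 250 nt before the start, the GC content was 76.8% for CD9, 77.2% for CD82, 60.8% for CD63 and 76.8% for TSPAN4, which were called higher at 72 h, and 44.0% for CD53 and 88.0% for TSPAN14, which were not. The GC box matched 6 times for CD9, 4 times for CD82, 2 times for TSPAN4, 6 times for TSPAN14 and once for CD53. No motif matched in the window used for CD63, which is 1 of 8 for that gene. It lies inside the gene, before the start of CD63-204. The model CD63-201, with 28.2% of the CD63 reads, starts further upstream. CD9 and TSPAN14 also had 1 EGR match each. Over the 250 nt TSPAN14, not called at 72 h, had as many GC box and EGR matches as CD9. In the printed stretch outside exons TSPAN14 had 2 GC box and 0 EGR matches, beside 6 and 1 for CD9. Of all 34943 windows of that length, 42.5% held a GC box, 8.39% an EGR match, 6.59% an AP-1 match, 20.5% a GATA match, 16.4% an ETS match and 10.8% a TATA box. Among all 23 windows of the 6 members, 16 held a GC box, with windows of every member among them, and 3 held an EGR match. An AP-1, a GATA and an ETS match were each held by 1 window, of CD63. Matches are descriptions of letters and not of binding.

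The other 23 tetraspanins of the list were set beside the 10, and 15 of them passed the filter. At 72 h 9 of the 15 were called, 8 higher and 1 lower, beside 58.6% of all genes called (31.7% higher and 26.9% lower), and their median log2 fold change was 0.55. By the naming rule the 6 with a mean of at least 5 CPM are described. TSPAN9, a platelet tetraspanin, had 0.644 and 0.772 CPM at 0 h, 11.8 and 11.1 at 24 h, then 67.3 and 68.5 at 72 h. Its log2 fold change at 72 h was 6.58 (SE 0.20, adjusted p = 5.34e-12), beside 6.85 (SE 0.19) for CD9, but at 6 h it was 1.03 (SE 0.24, adjusted p = 0.00219) beside 5.26 (SE 0.19) for CD9. TSPAN5, a TspanC8 member, rose by 3.44 (SE 0.10, adjusted p = 3.58e-12) at 72 h, from 10.6 and 9.43 to 111 and 107 CPM.

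TSPAN17 peaked at 6 h, while TSPAN13 reached a level there from which its 24 h value was not called different. TSPAN17, also a TspanC8 member, had 32.5 and 38.4 CPM at 0 h, 314 and 313 at 6 h, 87.0 and 94.8 at 24 h, then 136 and 129 at 72 h. Its value against 0 h was 3.14 (SE 0.11, adjusted p = 2.86e-11) at 6 h and 1.90 (SE 0.10, adjusted p = 2.43e-09) at 72 h. TSPAN13 had 29.8 and 26.1 CPM at 0 h, 342 and 257 at 6 h, 292 and 238 at 24 h, 257 and 201 at 48 h, then 241 and 136 at 72 h. For TSPAN13 the value against 0 h was 3.42 (SE 0.29) at 6 h, 3.25 (SE 0.29) at 24 h, 3.03 (SE 0.28) at 48 h and 2.75 (SE 0.28, adjusted p = 1.45e-06) at 72 h. From 6 to 24 h TSPAN13 was at -0.18 (SE 0.26, adjusted p = 0.577) and TSPAN17 fell by 1.78 (SE 0.10, adjusted p = 1.15e-08). TSPAN31 at 72 h was 0.55 above 0 h (SE 0.09, adjusted p = 0.000132), and TSPAN10 at 72 h was at -0.27 against 0 h (SE 0.21, adjusted p = 0.282). The fall was that of TSPAN19, at -1.11, named because the count is 1.

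**Figure D5:**
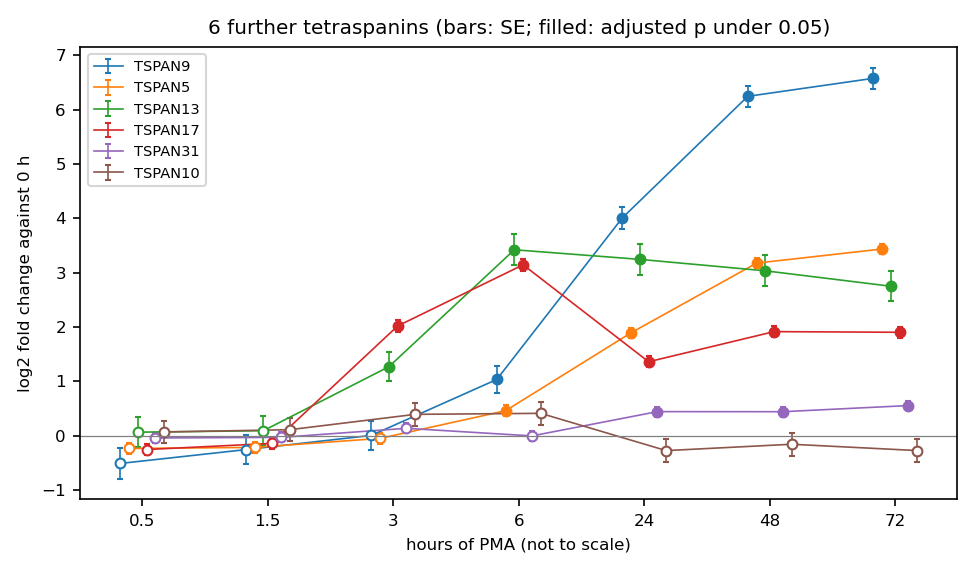
Log2 fold change against 0 h (y axis) of the 6 further tetraspanins with a mean of at least 5 CPM, by time of PMA (x axis, not to scale), with bars of 1 SE and filled points for an adjusted p under 0.05. TSPAN9 and TSPAN5 climb to 6.58 and 3.44 at 72 h, TSPAN17 peaks at 3.14 at 6 h, and TSPAN13 goes from 3.42 at 6 h to 3.25 at 24 h.

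Genes whose proteins sit with tetraspanins in the membrane were taken as a list of 18 partners, and their RNA was tested. At 72 h 11 were called higher and 3 lower, beside 31.7% and 26.9% of all genes, and 4 were not called, with a median log2 fold change of 1.87. ITGB3, the beta chain of the platelet fibrinogen receptor, had 1.75 and 1.29 CPM at 0 h and 1176 and 1008 CPM at 72 h, a rise of 9.48 on the log2 scale (SE 0.16, adjusted p = 7.13e-14). ITGA6, the alpha chain of a laminin receptor that binds CD151, had 0 and 2 reads at 0 h and 84.2 and 74.7 CPM at 72 h (adjusted p = 2e-11), and no fold is given. CD44, the hyaluronan receptor, had the highest mean level, and went from 14.3 and 15.2 CPM to 4823 and 4436 CPM (8.29, SE 0.14, adjusted p = 7.13e-14). IFITM1, an interferon-induced protein that binds CD81, fell by 1.61 (SE 0.13, adjusted p = 1.22e-07). MMP14, a membrane metalloprotease, fell by 0.77 (SE 0.16, adjusted p = 0.00101).

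Genes of late endosomes and vesicle release, the compartment of CD63, were taken as a list of 22. At 72 h 14 were called higher and 2 lower, beside 31.7% and 26.9% of all genes, with a median of 0.54. TIMP1, a secreted inhibitor of metalloproteases that binds CD63, had the largest rise and the highest mean level. It went from 81.1 and 137 CPM at 0 h to 8618 and 10336 CPM at 72 h (6.44, SE 0.26, adjusted p = 9.27e-11). RAB31, a small GTPase of endosomes, rose by 1.91 (SE 0.10, adjusted p = 1.24e-09). LAMP3, a lysosomal membrane protein, fell by 2.15 (SE 0.16, adjusted p = 4.36e-08). RAB27A, a GTPase of secretory granules and vesicle release, fell by 1.39 (SE 0.13, adjusted p = 5.12e-07). These genes were tested on the same libraries and the same 0 h reference as the members.

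Markers of other cells moved as well, and their part in the results was not tested. The calls below are at 72 h, where 31.7% of all genes were called higher and 26.9% lower. Of 10 fibroblast and endothelial markers 7 were tested and 6 were called higher at 72 h, with sums of 29.3 to 33.5 CPM at 0 h and 285 to 294 CPM at 72 h. COL3A1, LUM and KDR fell under the filter. The 10 monocyte and macrophage markers summed to 143 to 165 CPM at 0 h and 345 to 393 CPM at 72 h, with 4 called higher, 2 lower and MARCO under the filter. The 10 lymphoid markers summed to 15.1 to 19.6 CPM at 0 h and 26.5 to 26.8 CPM at 72 h, with 7 tested, 4 called higher and 2 lower (median log2 fold change 1.12), and CD3E, CD2 and MS4A1 under the filter.

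The likeness of each member to other genes was measured as Pearson's r of mean log2 CPM over the 8 time points, among the 11268 genes that averaged 5 CPM or more, as a description with no p. The points share their libraries. Pearson's r takes no account of the size of a change. At 72 h against 0 h EMP1 rose by 5.27 on the log2 scale and TSPAN3 by 1.38, while RAC2 rose by 2.05 and CD63 by 2.09. The nearest to CD9 were INHBA (0.998) and TAGLN3 (0.997), and to CD63 SH3BGRL3 and RAC2 (0.997 each). TSPAN3 was nearest to EMP1 (0.997) and CD276 (0.997), CD151 to MRPL36 and MCRIP1 (0.995 or 0.994 each), CD82 to ULK4 (0.994) and ABCB9 (0.993), and TSPAN4 to AP2S1 (0.991) and ZBED1 (0.988). The members with small changes had lower values, CD53 with RUNX2 (0.985) and RESF1 (0.984), CD81 with FBRSL1 (0.979) and BCL2L12 (0.962), CD37 with CUTA (0.966) and CDC34 (0.953), and TSPAN14 with LSM11 (0.960) and AP3M2 (0.953).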

How the data were processed

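Total RNA of 16 libraries was depleted of ribosomal RNA before sequencing, per the labels' protocols. The authors' deposited tables give, for each of 177456 transcripts, expected counts (estimated reads that need not be whole) and TPM values, per the file headers. The submitters' processing notes list Trim Galore 0.4.3 and Salmon and the builds hg19 and hg38, with no roles. How strands and sequence bias were treated is not given in the sources used here. Here 167027 transcripts (94.1%) were matched to genes of GENCODE 29 (GRCh38) by identifier without version. The unmatched carried 3.01 to 3.75% of reads, and a transcript of a member among them would be missed. Of 147 member transcripts, 140 have the same version and length as in GENCODE 29. Counts were summed per gene and rounded. TPM was summed and used for levels only.

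The test ran in edgeR 4.0.16 (R 4.3.3) with filterByExpr (17559 genes), TMM factors (0.854 to 1.139), a fit of all 8 time points (common biological coefficient of variation 0.123, 8 residual degrees of freedom), and the quasi-likelihood F-test with Benjamini-Hochberg adjustment over all genes in a contrast. Called means an adjusted p under 0.05. Fold changes used a prior count of 0.125. The SE is the size of the unshrunk log2 fold change over the root of its F statistic. For genes with few reads at 0 h, CD9 among them, it can be smaller than the counting error. The contrasts were each time point against 0 h, neighbouring time points, 72 h against 3 h and 6 h, and any change. An exact permutation test of 2 against 2 libraries cannot pass, so single genes rest on the shared spread. Groups were taken from the sample titles.

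All 10 members were named, other tetraspanins with a mean of at least 5 CPM, and from the partner and late-endosome lists the 2 largest rises and falls called at 72 h and the highest mean. The members and lists were chosen with earlier results of these data known. Alternatives were other scalings, filters, thresholds and tools (DESeq2 1.42.0, limma 3.58.1), TPM-derived counts, GC removal, the replicate number as a block, and leaving out each library. Samples sharing a replicate number did not deviate together throughout (28 pairs of time points, r from -0.118 to 0.211, 14 over 0.1).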

Additional observations from a re-analysis of the deposited data

How the results depend on the processing

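Over 150 pairs of a member and a contrast, 73 were called; 37 of these kept call and direction in all alternatives run, 36 lost the call in at least 1, 16 of those only at an adjusted p under 0.01 or against a 1.5-fold change, and none reversed. Of the uncalled pairs, 30 were called in at least 1 alternative. Shares of all genes are given only for the fit reported here, not for the alternatives. The cause of the changes below was not tested, except that the stricter thresholds lower the count by construction. The members called at 0.5 h (0) became 2 with no filter and 1 with DESeq2; at 1.5 h (2) they were 4 by total counts, 4 by length-scaled TPM, 1 by limma-voom, and 0 with GC removed, with the block and GC removed, at an adjusted p under 0.01, against 1.5-fold and with only the 2 time points. At 3 h (4) they were 7 by total counts. Against 1.5-fold they were 1 at 3 h, 4 at 24 h, 1 for 3 h against 1.5 h, 3 for 6 h against 3 h, 4 for 24 h against 6 h, 0 for 48 h against 24 h, 0 for 72 h against 48 h and 3 for 72 h against 6 h. For 1.5 h against 0.5 h (0), GC removal gave 1, with or without the block. For 48 h against 24 h (2), length-scaled TPM and an adjusted p under 0.01 gave 0, GC removal 4, the block with GC removal 5 and only the 2 time points 5. For 72 h against 48 h (1), length-scaled TPM, an adjusted p under 0.01 and only the 2 time points gave 0.

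Leaving out 1 library each gave 0 to 4 members at 0.5 h, 0 to 4 at 1.5 h, 5 to 9 for 24 h against 6 h, 0 to 4 for 48 h against 24 h, 0 to 1 for 72 h against 48 h and 5 to 8 for 72 h against 6 h. The 4 at 0.5 h came without 0 h replicate 1, the 5 for 24 h against 6 h without 24 h replicate 2, and the 5 for 72 h against 6 h without 6 h replicate 1. A group left with 1 library was assumed to vary like the others.

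No label describes the replicate number as a pairing. With the replicate number as a block, the members called were 7 at 72 h, 8 at 24 h, 9 for 24 h against 6 h, 3 for 48 h against 24 h, 9 for 72 h against 6 h and 10 for any change. Any change was not run for 1.5-fold or for 2 time points alone. CD9 at 0 h rests on 11 reads in each library, so its fold is less precise than its level at 72 h and than its SE implies.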

Other observations

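The TspanC8 tetraspanins, which carry ADAM10, a metalloprotease that cuts surface proteins, were also taken as a list. Of the 6 listed, 5 were tested and 3 were called higher at 72 h, beside 31.7% of all genes called higher and 58.6% called in either direction: TSPAN5, TSPAN17 and, named because the count is 3, TSPAN15, at 0.236 ± 0.0302 CPM (SD, n = 2) at 0 h and 1.60 ± 0.0581 CPM at 72 h. TSPAN10 and TSPAN14 were not called. The summed level of the list was 120 to 135 CPM at 0 h, 402 to 403 CPM at 6 h and 317 to 321 CPM at 72 h. Most of the 6 h sum was TSPAN17, whose levels are given above. Of the 5 tested, 2 were called higher and 1 lower at 6 h, beside 27.8% and 29.4% of all genes. ADAM10 had 194 and 146 CPM at 0 h and 366 and 271 CPM at 72 h, which is 0.90 higher on the log2 scale (SE 0.14, adjusted p = 9.22e-05 in edgeR).

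The CD63 model CD63-209, annotated as a target of nonsense-mediated decay, took 4.52 to 12.2% of the CD63 reads in the libraries of replicate 1 and 12.001 to 25.1% in those of replicate 2. The fragment lengths of the replicate sets, given above, also differ, and their part in these shares was not tested.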
